A study of Homo sapiens with 4 samples.

Results

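Wnt target genes and genes of the intestinal crypt were followed in LS180, a human cell line established from a colon carcinoma, with and without RBM35A. The set was 9 named genes and comprised all probe sets annotated to them, with CD44 and MYC left out. These genes were chosen with earlier results of these data known. The annotation of the HG-U95Av2 array named 9 probe sets for 6 of them, EPHB3, LGR5, ASCL2, SOX9, CCND1 and PHLDA1, out of 8225 genes with a probe set of their own. EPHB2, AXIN2 and TCF7 were not analysed here. Of the 6 genes, 5 reached a log2 value of 5 on at least 1 array and were analysed, as were 3588 genes in all; LGR5 did not.

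RBM35A, now called ESRP1, is an epithelial splicing regulator that binds RNA. RBM35A+ cells carried a Tet-off construct and were grown for 6 days or longer with no doxycycline, which switches RBM35A on. RBM35A− cells were kept in doxycycline, are called parental in the labels, and are not said to carry or lack the construct. Each state gave 1 array of total RNA and 1 array of polysomal RNA, the RNA of transcripts loaded with several ribosomes, so the study holds 4 arrays and no replicates. Doxycycline, RBM35A and any difference between the lines changed together and cannot be told apart, and RNA fraction changed together with the extraction.

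In the crypts of the intestine, Wnt ligands hold beta-catenin away from its destruction complex, and beta-catenin then joins TCF proteins on DNA to switch on genes of stem and progenitor cells. The transcripts studied here belong to that programme, and several of them are lost as cells move up to the villus or the surface of the colon. Most colon carcinomas switch the pathway on by mutation of APC or beta-catenin, and LS180 is among the lines with a mutated beta-catenin gene.

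EPHB3 and PHLDA1 were lower in RBM35A+ than in RBM35A− cells in both RNA fractions, and ASCL2 was lower in total RNA, where alone it was measured. The differences of SOX9 and CCND1 lay near 0 in both. At 1.5-fold, 1 of 5 members was lower and 0 were higher in total RNA, the lower one being ASCL2, against 0.663% of 3320 measured genes lower and 1.54% higher. In polysomal RNA, EPHB3 and PHLDA1 made 2 of 4 measured members lower and 0 were higher, against 1.3% of 3391 genes lower and 0.767% higher. At a 2-fold call 0 members were lower in either fraction, but the share of all genes at 2-fold was not computed. The median over members was −0.42 in total RNA (5 members) and −0.39 in polysomal RNA (4 members), against medians over all measured genes of 0.0021 and 0.019. With a floor of 4 in place of 5, where LGR5 and, in polysomal RNA, ASCL2 enter, the medians over 6 members were −0.27 in total and −0.25 in polysomal RNA, and with no floor that in total RNA was −0.27. All differences are RBM35A+ minus RBM35A− on the log2 scale unless another pair is named. With 1 array per group none of them has a test or a replicate check. The members were chosen with earlier results of these data known. The shares and medians over all genes beside them are therefore a description and no test. The only error available is the disagreement between probe sets of the same gene, which gave an SD for a single probe set of 0.188 in total and 0.195 in polysomal RNA (339 genes). It does not cover differences between cultures. EPHB3, PHLDA1, ASCL2 and SOX9 had 1 probe set each, so no second probe set of the same gene stands beside their values.

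The labels set the state of the cells, since 0 probe sets were annotated to RBM35A itself. Of 12 markers of colon epithelium, 11 reached 5 on all 4 arrays, and KRT20, a keratin of differentiated surface cells, on none. Of 7 haematopoietic markers on the array 1 (HBB) reached it, and of 8 fibroblast and endothelial markers 1 (COL1A1), in polysomal RNA alone. Control probe sets at the 5′ end of beta-actin read 9.42 in polysomal RNA of RBM35A+ cells and 10.29 in that of RBM35A− cells, and those of GAPDH 12.03 in RBM35A+ and 12.81 in RBM35A− cells. Their 3′ probe sets differed by −0.02 and −0.13 between the same arrays. The polysomal differences below stand beside this lower 5′ signal, whose part in them was not tested.

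EPHB3 is a receptor tyrosine kinase for ephrin-B ligands, and EphB signalling keeps crypt cells in their place below the ephrin-B-rich cells nearer the surface. Its 1 probe set (1438_at) read 10.98 in RBM35A+ and 11.44 in RBM35A− cells in total RNA, and 10.59 in RBM35A+ and 11.52 in RBM35A− cells in polysomal RNA. The RBM35A+ array was thus the lower one of each pair. The difference was −0.47 in total RNA, 2.48 times the SD of a probe set, and 68 of 3320 genes lay lower. In polysomal RNA it was −0.93, or 1.90-fold lower, and 7 of 3391 genes lay lower. Only 1 other gene of the 3123 measured in both fractions, CCDC85B, was at least as low as EPHB3 in both. The polysomal difference minus that in total RNA was −0.46, which is 1.93 times the SD of a probe set for this quantity (0.239) and short of 1.5-fold. For this quantity 0 of 4 members reached 1.5-fold in either direction, against 2.4% of genes lower and 1.02% higher.

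PHLDA1, a pleckstrin-homology protein found in stem and progenitor cells of the gut epithelium, followed the same order. Its probe set (35909_at) read 9.13 in RBM35A+ and 9.56 in RBM35A− cells in total RNA. In polysomal RNA it read 7.02 in RBM35A+ and 7.68 in RBM35A− cells. RBM35A+ was again lower in each pair. The difference was −0.42 in total RNA, where 103 genes lay lower, and −0.66, or 1.58-fold lower, in polysomal RNA, where 32 genes lay lower. With the linear trend on the polysomal minus total difference removed, the polysomal difference of PHLDA1 was −0.55 and no longer reached 1.5-fold, whereas that of EPHB3 was −0.92. The polysomal difference of PHLDA1 minus that in total RNA was −0.24, about 1 SD of a probe set. No gene (0) of the 3123 was 1.5-fold lower in both fractions, EPHB3 and PHLDA1 included.

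**Figure D1:**
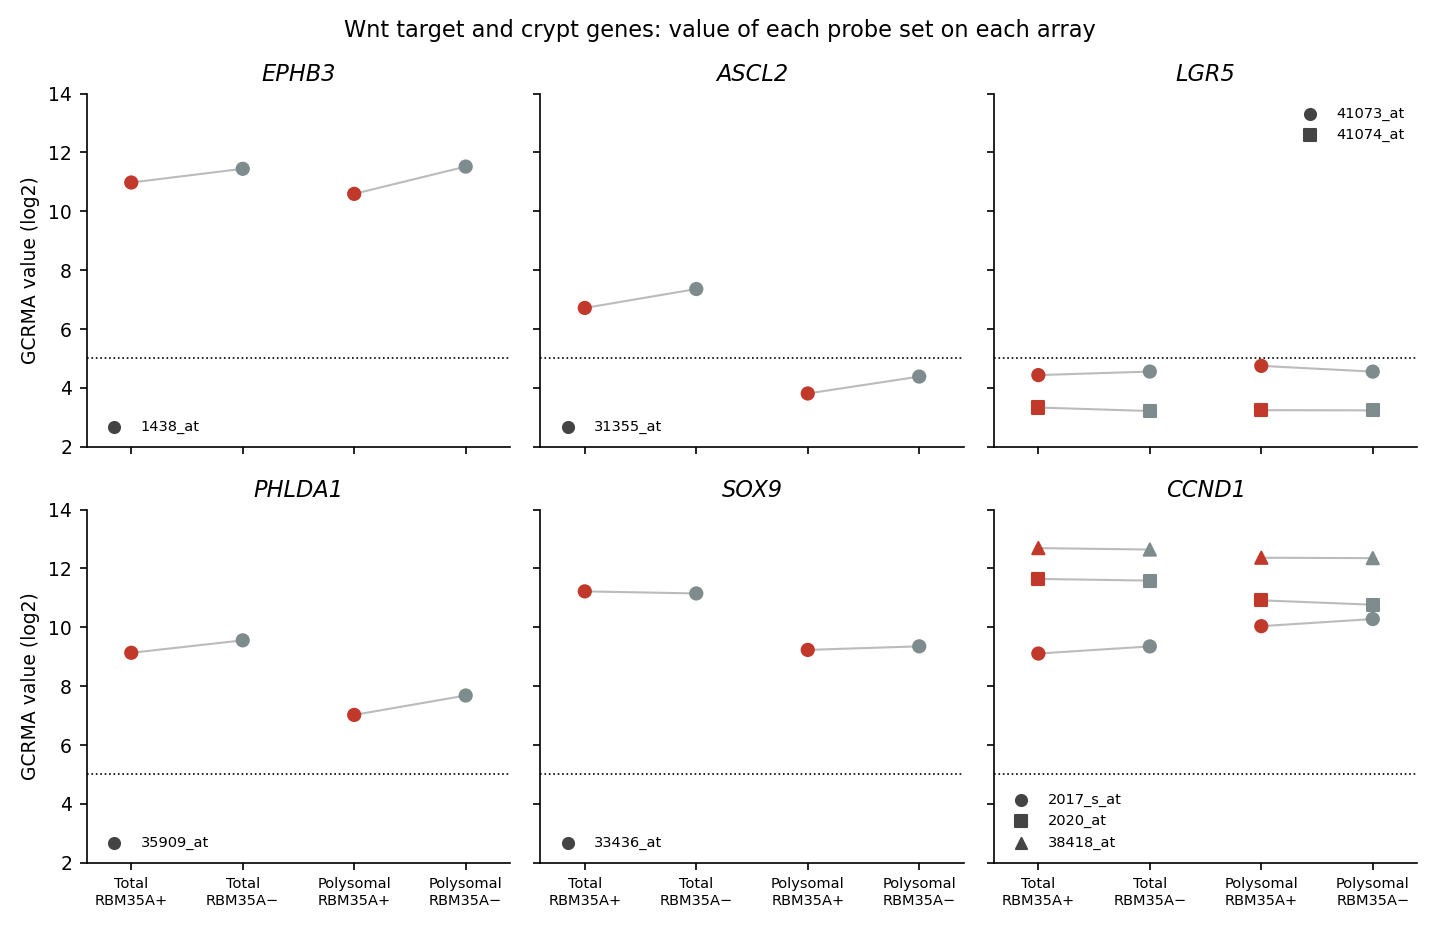
GCRMA values (log2, y axis) of every probe set of the 6 genes on the 4 arrays (x axis). Each point is 1 probe set on 1 array, red for RBM35A+ and grey for RBM35A−, grey lines join the arrays of a fraction, and the dotted line marks a value of 5. EPHB3 (10.98 in RBM35A+ against 11.44 in RBM35A− cells, and 10.59 against 11.52) and PHLDA1 are lower with RBM35A in both fractions, ASCL2 lies under the line in polysomal RNA, and both probe sets of LGR5 lie under it on all arrays.

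The RefSeq promoter table (GRCh38.p14) held windows of both EPHB3 and PHLDA1, the members lower in both fractions, and they are shown because these genes are the ones that lay together. Each run is the 250 bases before the annotated start, on the gene's own strand. The EPHB3 window lies at chr3:184561535-184561784 on the plus strand and the PHLDA1 window at chr12:76031777-76032026 on the minus strand. Capitals mark GC boxes (GGGCGG, either strand) and CCAAT boxes (CCAAT, either strand).
EPHB3: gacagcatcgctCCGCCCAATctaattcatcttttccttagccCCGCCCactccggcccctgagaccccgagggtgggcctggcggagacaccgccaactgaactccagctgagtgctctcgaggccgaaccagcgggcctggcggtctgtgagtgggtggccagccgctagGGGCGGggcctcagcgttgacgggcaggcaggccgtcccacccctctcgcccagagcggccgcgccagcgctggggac
PHLDA1: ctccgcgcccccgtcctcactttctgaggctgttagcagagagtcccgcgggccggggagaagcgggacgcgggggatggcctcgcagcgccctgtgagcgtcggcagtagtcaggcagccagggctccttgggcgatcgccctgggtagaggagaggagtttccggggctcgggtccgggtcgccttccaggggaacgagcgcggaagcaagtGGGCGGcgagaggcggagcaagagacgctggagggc
The EPHB3 window held 3 GC boxes and 1 CCAAT box, the CCAAT box overlapping the first GC box, and the PHLDA1 window held 1 GC box and no (0) CCAAT box. Of 35116 windows of this length in the table, 42.6% held a GC box and 32.0% a CCAAT box. The TCF motif, searched on both strands as CTTTG followed by 2 bases that are each A or T, had 0 matches in either window, and 12.0% of all windows held at least 1. The first 5 letters alone, its core, had 0 matches as well, against 42.1% of all windows. Of the other members with windows in the table, EPHB2 had 0 matches of either in its 2 overlapping windows, and 1 of the 2 windows of TCF7 held 1 match of the TCF motif and 2 of its core. GC content was 70.0% and 70.4%, against a median of 58.0% over all windows. These matches describe letters within 250 bases of the start and no binding.

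By the pair of differences in total and polysomal RNA, the genes nearest to EPHB3 were PCK1, ZNF428 and KLHDC3. PCK1, the gluconeogenic phosphoenolpyruvate carboxykinase, was at −0.36 in total and −0.93 in polysomal RNA. ZNF428 was at −0.35 and −0.89, and KLHDC3 at −0.40 and −1.07, the last a lower bound in size since its RBM35A+ polysomal value was under 5. Nearest to PHLDA1 were BCL7B (−0.40 and −0.72, the polysomal value a bound), a subunit of chromatin remodelling complexes, the ubiquitin ligase RNF126 (−0.34 and −0.65), and DDIT4 (−0.37 and −0.73), an inhibitor of mTORC1 signalling. Nearest to SOX9 were ZNF91, VPS26C and MAP2K6, with total RNA differences of 0.06 each and polysomal ones of −0.12 each. Nearest to CCND1 were R3HDM2, KTN1 and ERP29, with total RNA differences from 0.04 to 0.05 and polysomal ones from 0.01 to 0.02. The likeness rests on a pair of numbers from 4 arrays.

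**Figure D2:**
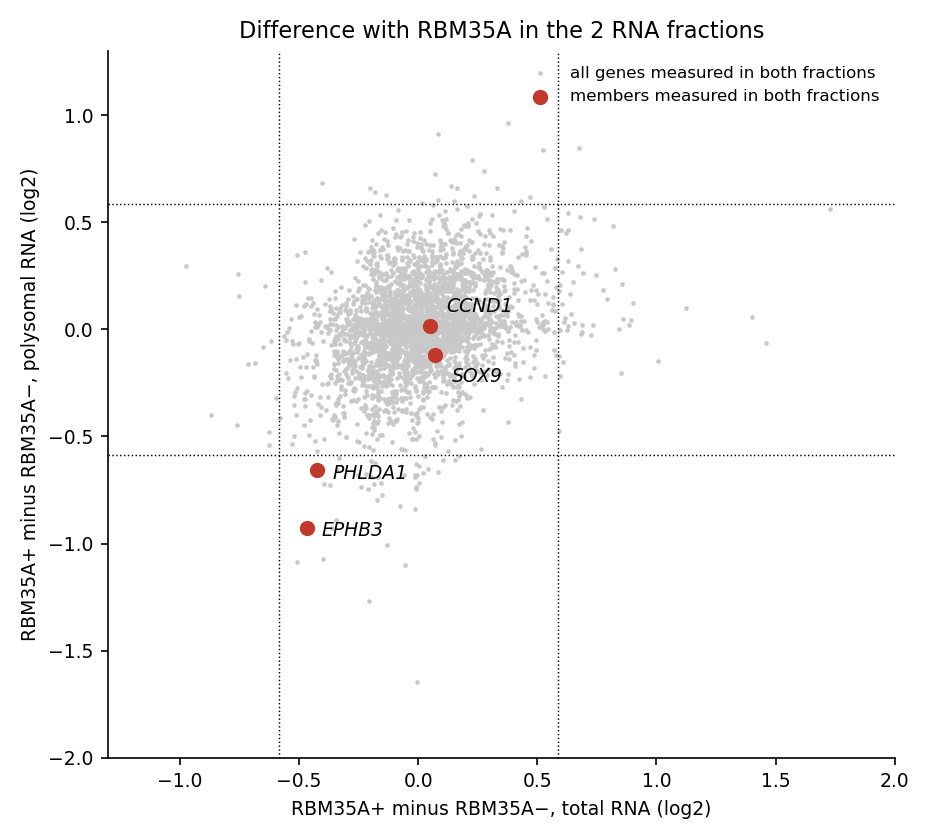
RBM35A+ minus RBM35A− in total RNA (x axis, log2) against the same in polysomal RNA (y axis, log2) for the 3123 genes measured in both fractions, grey, and for the 4 members among them, red. Dotted lines mark 1.5-fold. EPHB3 (−0.47 and −0.93) and PHLDA1 (−0.42 and −0.66) lie at the lower left edge of the cloud, and SOX9 and CCND1 lie in its middle.

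ASCL2, a basic helix-loop-helix factor that maintains the stem cell state of the crypt, read 6.72 in RBM35A+ and 7.36 in RBM35A− cells in total RNA (31355_at). The RBM35A+ array was 1.56-fold lower, at −0.64, 3.42 times the SD of a probe set, and 11 of 3320 genes lay lower. With the linear trend on the polysomal minus total difference removed, the value was −0.56 and the member no longer reached 1.5-fold. In polysomal RNA both values lay under 5, at 3.81 in RBM35A+ and 4.38 in RBM35A− cells, so the polysomal difference was not measured. Whether fewer cells held the transcript or each cell held less of it cannot be told apart in RNA from whole cultures, here and for the other members.

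SOX9, an HMG-box factor of crypt progenitors and Paneth cells, read 11.22 in RBM35A+ and 11.15 in RBM35A− cells in total RNA (33436_at). In polysomal RNA it read 9.23 in RBM35A+ and 9.35 in RBM35A− cells. The RBM35A+ array was the higher one of the pair in total RNA and the lower one in polysomal RNA. Both differences, 0.07 and −0.12, were under 1 SD of a probe set, and 2084 of 3320 and 748 of 3391 genes lay lower.

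CCND1 encodes cyclin D1, which drives cells through G1 with CDK4 and CDK6, and its 3 probe sets did not give the same picture. The brightest (38418_at), which represents the gene, read 12.69 in RBM35A+ and 12.64 in RBM35A− cells in total RNA. In polysomal RNA it read 12.36 in RBM35A+ and 12.35 in RBM35A− cells. Its differences of 0.05 and 0.01 were small against the SD of a probe set, as was that of 2020_at in total RNA (11.64 in RBM35A+ and 11.58 in RBM35A− cells, 0.06).
In polysomal RNA 2020_at read 10.92 in RBM35A+ and 10.77 in RBM35A− cells, a difference of 0.15. The probe set 2017_s_at, whose suffix marks sequence shared with other transcripts, read 9.11 in RBM35A+ and 9.35 in RBM35A− cells in total RNA, and 10.04 in RBM35A+ and 10.28 in RBM35A− cells in polysomal RNA. Its difference was −0.24 in both fractions, lower with RBM35A. The probe sets were spread over 0.30 in total and 0.39 in polysomal RNA, 1.59 and 2.01 times the SD of a single probe set.

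LGR5, the R-spondin receptor that marks stem cells at the crypt base, was not measurable. Its probe set 41073_at read 4.43 in RBM35A+ and 4.55 in RBM35A− cells in total RNA, and 4.75 in RBM35A+ and 4.55 in RBM35A− cells in polysomal RNA. The other, 41074_at, read between 3.21 and 3.33 on all 4 arrays. All 8 values lay under 5, and no difference is drawn from them.

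Against total RNA, 3 of 5 members had lower polysomal values at 2-fold in each state of the cells, PHLDA1, SOX9 and ASCL2, and 0 were higher. Over all genes, 8.06% were that much lower and 14.4% higher in RBM35A+ cells, and 8.02% lower and 14% higher in RBM35A− cells. PHLDA1 had a polysomal minus total difference of −2.11 in RBM35A+ and −1.87 in RBM35A− cells. That of SOX9 was −1.99 in RBM35A+ and −1.80 in RBM35A− cells. ASCL2 had at least 3.28-fold lower polysomal values in RBM35A+ and at least 5.13-fold lower ones in RBM35A− cells, as its polysomal values lay under 5. With a floor of 6 its bound in RBM35A+ cells was −0.72, short of 2-fold, and 2 members were lower there. These sizes at the floor of 5 were 2.19 to 3.38 times the SD of a probe set, which was large for this quantity, 0.784 in RBM35A+ and 0.697 in RBM35A− cells.

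EPHB3 and CCND1 lay within 2-fold of their total RNA values. EPHB3 had a polysomal minus total difference of −0.39 in RBM35A+ and 0.07 in RBM35A− cells. For CCND1 the representative gave −0.33 in RBM35A+ and −0.29 in RBM35A− cells, and 2020_at gave −0.73 in RBM35A+ and −0.82 in RBM35A− cells. The shared-sequence probe set 2017_s_at gave 0.93 in both. The authors normalized the fractions apart from each other. The 5′ control of beta-actin was −5.32 in RBM35A+ and −4.51 in RBM35A− cells on this comparison, against −0.27 in RBM35A+ and −0.30 in RBM35A− cells at the 3′ end. That of GAPDH was −2.59 in RBM35A+ and −1.83 in RBM35A− cells, against −0.14 and −0.16 at the 3′ end. The part of this loss in the members' values was not tested, and where their probe sets lie along the transcripts was not used here.

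**Figure D3:**
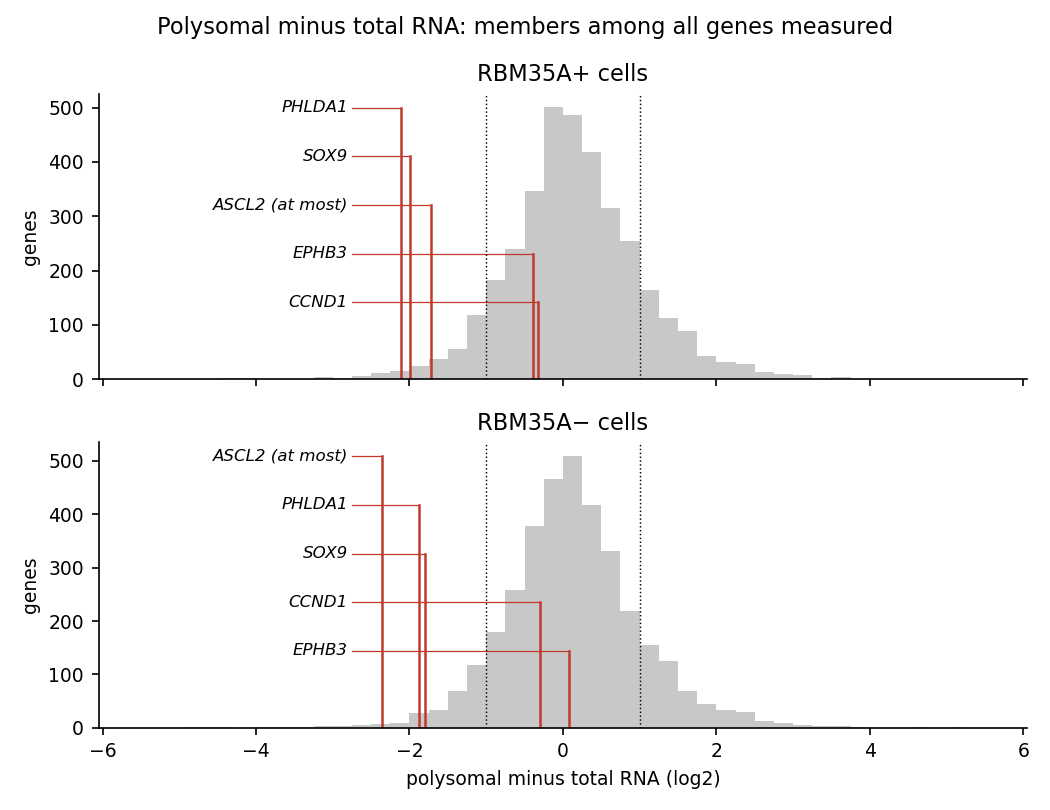
Polysomal minus total RNA (x axis, log2) for all genes measured (grey histogram, number of genes on the y axis) and the 5 members (red lines), in RBM35A+ cells above and RBM35A− cells below. Dotted lines mark 2-fold, the height of a red line has no meaning, and values of ASCL2 are upper bounds. PHLDA1 (−2.11 and −1.87), SOX9 and ASCL2 lie left of the lower dotted line in both panels, and EPHB3 and CCND1 lie within the lines.

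Genes that carry the Wnt signal were set beside its targets. Of 25 listed ligands and secretion factors 10 were on the array and 1 was analysed, WNT6, which read 12.47 in RBM35A+ and 12.09 in RBM35A− cells in total RNA. In polysomal RNA it read 10.59 in RBM35A+ and 11.02 in RBM35A− cells, so its differences were 0.38 and −0.43. These values rest on 1 probe set, with the suffix _i_at in place of _at. Of 11 receptors on the array 5 were analysed and 0 reached 1.5-fold, the lowest being the co-receptor LRP5 at −0.22 in total and −0.36 in polysomal RNA. LRP6, its paralogue, was at 0.05 and −0.01. All 8 secreted or feedback inhibitors on the array, DKK1 and SFRP1 among them, lay under 5 throughout.

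Of genes of the destruction complex and other cytoplasmic transducers, 18 of 22 on the array were analysed. APC, APC2, BTRC and TNKS lay under 5 on all arrays. The analysed genes had a median of −0.10 in total RNA, where 12 of 18 lay below 0. In polysomal RNA it was −0.05, and 11 of 17 lay below 0. At 1.5-fold 0 were lower or higher in total RNA, and 1 was lower and 0 higher in polysomal RNA. That one was DVL1, a Dishevelled protein that relays the signal from the receptor, at least 1.53-fold lower, with 4.73 in RBM35A+ and 5.61 in RBM35A− cells. In total RNA DVL1 was at −0.20. A further probe set of CSNK1G2, of the same list, was past 1.5-fold in polysomal RNA. It gave −0.92, where the one that represents the gene gave −0.08 and another −0.31. FRAT2, which binds GSK3, was highest in total RNA at 0.58, just short of 1.5-fold, and PPP2CA, a catalytic subunit of phosphatase 2A, was lowest at −0.50.

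Beta-catenin itself, CTNNB1, read 11.64 in RBM35A+ and 11.61 in RBM35A− cells in total RNA, and 10.66 in RBM35A+ and 10.88 in RBM35A− cells in polysomal RNA. Its differences were 0.03 and −0.22, and those of AXIN1, a scaffold of the complex, were −0.32 and −0.03. Of nuclear TCF partners and co-regulators, 13 of 21 on the array were analysed and 0 reached 1.5-fold in either fraction. The lowest was CBY1, which binds beta-catenin, at −0.35 in total RNA, and the highest TCF7L2, the main TCF of the gut epithelium, at 0.38 in polysomal RNA with −0.0045 in total RNA. LEF1 lay under 5.

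Of other TCF target genes outside the set, 11 of 22 on the array were analysed. By the probe set that represents each gene, 0 reached 1.5-fold in either fraction. Further probe sets of these genes did, all of them lower. In total RNA they belonged to BMP4 (−0.60) and MYB (−0.64, with its remaining ones at 0.07, 0.10 and −0.23). In polysomal RNA it was one of VEGFA (−0.76, with its remaining ones at −0.03 and −0.07). Their medians were −0.03 in total and −0.02 in polysomal RNA. The growth factor BMP4 was lowest in total RNA (−0.28, with its other probe set at −0.60) and the transcription factor ETS2 in polysomal RNA (−0.29, with its other probe set at 0.20). The highest were the glutathione peroxidase GPX2 in total RNA (0.31) and the actin-binding ENC1 in polysomal RNA (0.25). No test compares the members with this list.

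Among stem cell and Paneth cell genes of the crypt, 7 of 18 on the array were analysed and 1 was lower at 1.5-fold in total RNA, 0 in polysomal RNA, and 0 higher in either. PLA2G2A, the secreted phospholipase of Paneth cells, read 9.16 in RBM35A+ and 9.88 in RBM35A− cells in total RNA, a difference of −0.71, while its other probe set gave −0.29 and its polysomal difference was −0.16. OLFM4, PROM1 and the defensins DEFA5 and DEFA6 lay under 5 on all arrays.

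Of the ephrins and the other Eph receptors, 0 of 8 measured in polysomal RNA reached 1.5-fold, where EPHB3 was at −0.93, with a range of −0.15 for EPHA2 to 0.17 for EPHA4. EPHB4 was at 0.00038 in total and −0.11 in polysomal RNA, and the ligands EFNB1 (0.09 and 0.01) and EFNB2 (−0.16 and 0.02) differed by less than the SD of a probe set. In total RNA 1 of 7 was lower, the ephrin EFNA3 with 5.23 in RBM35A+ and 5.84 in RBM35A− cells (−0.61), a probe set of shared sequence, and 0 were higher.

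CDK4, a kinase partner of cyclin D1, was at −0.19 in total and 0.06 in polysomal RNA, and CDKN1A, a CDK inhibitor, at 0.31 and 0.13. Of G1 cyclins, kinases and inhibitors 0 of 9 reached 1.5-fold in total RNA, with CDK2 highest at 0.49. The other probe set of CDK2 gave 0.16 in total and −0.48 in polysomal RNA, where the first gave 0.14. A further probe set of RB1 reached 1.5-fold in total RNA, at −0.59. The one that represents RB1 gave −0.05 and another, as a bound, −0.11. In polysomal RNA 1 of 10 was lower and 0 higher, E2F4 at −0.72 with its other probe set at −0.09, and E2F3 was highest at 0.49.

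Of genes of the differentiated villus and surface cells, the opposite pole of the crypt, 8 of 19 on the array were analysed. The remaining 11, SI, ALPI and FABP2 among them, lay under 5 on all arrays. The analysed genes had a median of 0.17 in total RNA (8 genes) and −0.05 in polysomal RNA (7 genes). In total RNA 1 was higher at 1.5-fold and 0 lower, and in polysomal RNA 0 were higher or lower. The higher one was FABP1, a fatty acid carrier of enterocytes, with 6.12 in RBM35A+ and 5.48 in RBM35A− cells (0.64). Its values lay near the floor of 5, and in polysomal RNA it read 5.13 in RBM35A+ and 5.06 in RBM35A− cells. In polysomal RNA the lowest was CEACAM5 (−0.56), an adhesion protein of the colon surface, and the highest CDH17 (0.08), the liver-intestine cadherin. Of the 7 measured in both fractions, all 7 had a smaller or more negative difference in polysomal than in total RNA, with 0 of them past 1.5-fold. So did all 4 measured members, 10 of 11 colon epithelium markers, a list that shares 5 of these 7 genes, and 1547 of 3123 genes overall. The summed level of the colon epithelium markers was 14.50 (log2) on the RBM35A+ polysomal array and 14.74 on the RBM35A− one. In total RNA it was 15.45 in RBM35A+ and 15.44 in RBM35A− cells. A further probe set of CDH1, one of these markers, was past 1.5-fold lower in total RNA. It gave −0.94 (6.60 in RBM35A+ and 7.54 in RBM35A− cells), where the one that represents the gene gave 0.39. In polysomal RNA the further probe set lay under 5 in both states.

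**Figure D4:**
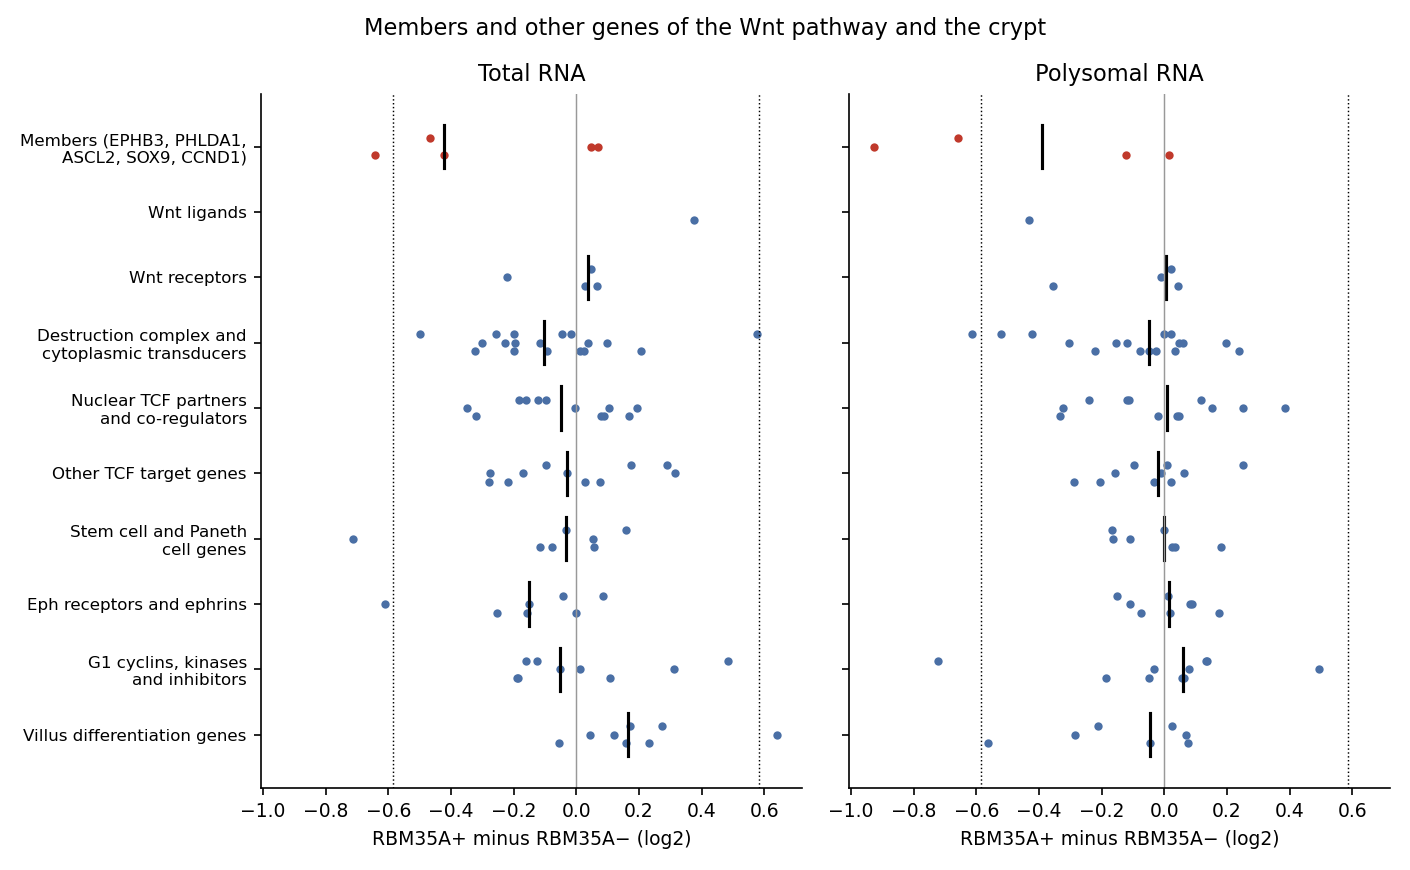
RBM35A+ minus RBM35A− (x axis, log2) of each measured gene of the set (red) and of the other lists (blue, lists named on the y axis), in total RNA on the left and polysomal RNA on the right. Black bars are medians of lists with at least 3 genes and dotted lines mark 1.5-fold. Medians of the set are −0.42 and −0.39, and those of the other Wnt and crypt lists lie between −0.15 and 0.06, apart from the villus genes at 0.17 in total RNA and the single ligand.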

How the data were processed

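Deposited values of 12626 probe sets on 4 Affymetrix HG-U95Av2 arrays were used. Per the submitters' processing notes, the authors made these log2 values with GCRMA, whose version is not given in the sources used here. Sorted values were equal to within 4.29e-06 in the total RNA pair and 6.61e-06 in the polysomal pair but differed by up to 0.227 between pairs, so each pair had been quantile normalized by itself. This step removes a shift of most genes between the arrays of a pair. Of the probe sets, 10943 had 1 gene symbol, 546 several, 1070 none and 67 were controls. By gene ID, 10934 were matched to a RefSeq table and took its symbol. Each gene took its probe set of highest mean. Values under 5 were raised to 5, a difference with both under 5 was left out, and one with 1 under 5 is a bound. Calls were at 1.5-fold, or 2-fold between fractions, with no test. Named genes were all members, the 3 genes nearest each member measured in both fractions and, of other lists, those called and some of the extreme ones. Some genes of other lists were named because a further probe set passed 1.5-fold. CTNNB1, AXIN1, LRP6, EPHB4, EFNB1, EFNB2, CDK4, CDKN1A and genes given only as under 5 were named for their roles after their values were seen. Members and lists were chosen with earlier results of these data known. Python 3.11.15, numpy 2.4.6 and pandas 2.3.3 were used, and the steps were tested on simulated data. Alternatives were other floors, choices of probe set, normalization over all arrays, trend removal and a 2-fold call. The number of arrays limits the precision.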

Additional observations from a re-analysis of the deposited data

Results flagged for a closer look

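WNT6, the only Wnt ligand analysed, went in opposite directions in the fractions, 0.38 in total and −0.43 in polysomal RNA, each past 1 SD of a probe set. Both values rest on 1 probe set, with the suffix _i_at in place of _at, and no second probe set stands beside it. Whether its signal comes from WNT6 alone was not tested. The polysomal difference minus that in total RNA was −0.81. The difference between the fractions was not tested, since each group had 1 array.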

How the results depend on the processing

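Over the settings tried, 98 of 105 recomputed counts and medians stayed within 1.5 times or 1 SD of a probe set of the values reported. With the trend removed, members lower at 1.5-fold became 0 in total RNA and 1 in polysomal RNA, and at a 2-fold call 0 in each. Shares over all genes were computed at the main settings alone, so none stands beside the counts of this section. The median polysomal minus total difference became −1.04 in RBM35A− cells with no floor and with a floor of 4, where LGR5 enters as a further member, and −0.72 in RBM35A+ cells with a floor of 6, where the bound of ASCL2 shrinks with the floor and 2 members, not 3, were lower at 2-fold. EPHB3 ranged from −0.47 to −0.46 in total and from −0.95 to −0.92 in polysomal RNA. PHLDA1 ranged from −0.42 to −0.34 and from −0.67 to −0.55, and ASCL2 from −0.64 to −0.56 in total RNA. No paired analysis was possible because each group had 1 array. Leaving out an array leaves no comparison in its fraction.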
